A study of Schmidtea mediterranea with 48 samples.

Results

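In control planarians fed double-stranded RNA against unc22, 69 features of the transcriptome were chosen because their level was higher on day 18 than on day 6 and because zfp1, sox8 or pax5 RNAi left them near the control level. They were chosen from 28413 features, of which 19094 had a mean of at least 1 RPKM (read counts divided by feature length and library depth) over the 48 libraries. The value u is the log2 ratio of the mean RPKM of unc22 worms on day 18 to that on day 6, after 0.5 was added to both, and 119 features had a u of at least 0.9. Of these, 50 were set aside because their level under RNAi lay too far from the unc22 level of the same day, most often (29 features) because pax5 RNAi on day 18 exceeded it by 0.25 log2 units or more. The 69 that remained had to lie within 1 log2 unit of unc22 in zfp1 worms on day 18, above -1 in zfp1 worms on day 12, between -1 and 0.25 in pax5 worms on day 18, under 0.5 on average over the pax5 days and above -0.5 on average over the sox8 days.

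Whole Schmidtea mediterranea of the clonal CIW4 line were fed bacterially made double-stranded RNA against zfp1, sox8, pax5 or unc22, mixed with calf liver paste, in 3 feedings spaced 3 days apart. Polyadenylated RNA was sequenced after 6, 12 and 18 days, with 4 libraries in each of the 12 groups. All worms thus shared the feeding scheme, and the unc22 worms received double-stranded RNA too. Samples of different days differ at the same time in days since feeding, in duration of RNAi and possibly in library handling, which cannot be told apart here. The labels do not say whether a replicate was a worm, a pool or a repeated library, so p-values reflect only how far these libraries differ, and part of that may be technical.

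Planarians are flatworms that replace their cells throughout life from a pool of dividing stem cells, the neoblasts. The zinc-finger gene zfp1 is known in this species for its role in the stem cells that form the epidermis, while sox8 and pax5 belong to the Sox and Pax families of transcription factors. The gene unc22 is a nematode muscle gene that serves as a non-targeting control. The features carry SMED30 identifiers without gene names, so no role is given for any of them, and the targeted genes and cell type markers were not looked up. In whole worms, fewer cells of a type and less RNA per cell cannot be told apart.

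The 69 features formed a set of mostly short and moderately abundant transcripts. Their mean level over the 48 libraries ran from 1.37 to 476 RPKM with a median of 22.9 RPKM, against a median of 9.02 RPKM over all 19094 features with a mean of at least 1 RPKM. A mean of 100 RPKM or more was reached by 9 of them, 34 lay between 10 and 100 RPKM, and 26 lay under 10 RPKM. Their lengths, as inferred from the RPKM values, ran from 134 to 3220 bases with a median of 703, against 1217 for the features with a mean of at least 1 RPKM, and 50 of the 69 were shorter than 1000 bases. Among the 69, 16 had fewer than 10 reads in at least 1 library.

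Recovered depth per library was 23162610 reads at the median, with a lowest value of 6894458 and a highest of 65663283. All 69 features passed the filter used for testing (a mean of at least 0.5 RPKM, 22667 features). At the median depth and a median feature length that was not that of the 69, a floor of 3 reads corresponds to 0.134 RPKM, which covers counting error only. In shorter features the same reads correspond to a higher RPKM, and the median length of the 69 was 703 bases.

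The course in unc22 worms chose the features and is described without a test. Their u ran from 0.90 to 1.83 with a median of 1.04, and 40 of 69 had a u of 1 or more. Just inside the limit were SMED30008225 (u = 0.901), SMED30012560 (0.905) and SMED30020068 (0.905). Just outside were SMED30028136 (0.899), SMED30023271 (0.899) and SMED30029625 (0.896), so the limit does not mark a gap. Most of the features were already part of the way up on day 12. The ratio of the day 12 change to the day 18 change, both against day 6 in unc22 worms, had a median of 0.546, and it lay between 0.4 and 0.8 in 54 of 69 features. It was under 0.4 in 10 features, whose increase came late, and over 0.8 in 5, of which 2 were higher on day 12 than on day 18.

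**Figure D1:**
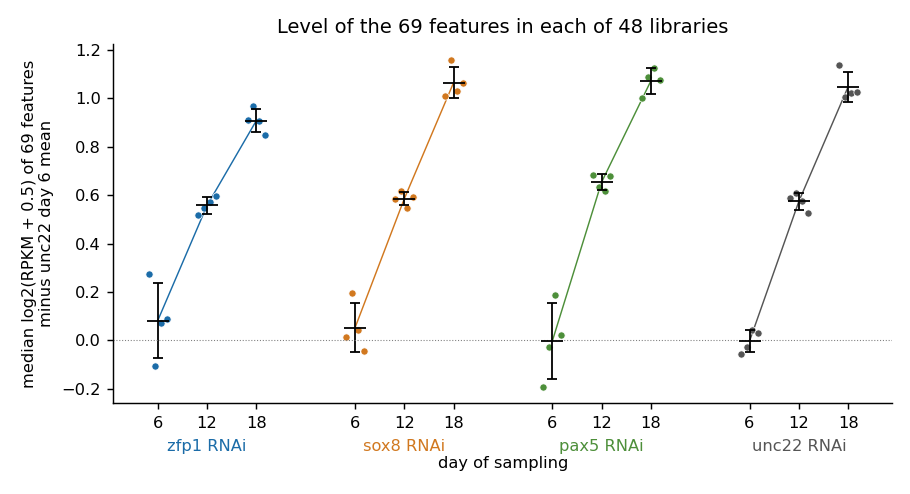
Median of log2(RPKM + 0.5) over the 69 features in each library, as a difference from the unc22 day 6 mean, by RNAi and day of sampling. Points are the 4 libraries of a group, and the bars give their mean and SD. In each RNAi the libraries of day 18 lie above those of day 12, and those of day 12 above those of day 6, and the libraries of zfp1, sox8 and pax5 on day 6 are spread more widely than the others.

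Taken per library, the 69 features stood at 3 separate heights by day under every RNAi, as the plot of library medians shows. On day 18 the median difference from the unc22 day 6 mean was 0.91 ± 0.05 log2 units in zfp1 worms, 1.07 ± 0.07 in sox8 worms, 1.07 ± 0.05 in pax5 worms and 1.05 ± 0.06 in unc22 worms (SD, n = 4 each). On day 12 it was 0.56 ± 0.03 in zfp1 worms, 0.59 ± 0.03 in sox8 worms, 0.65 ± 0.03 in pax5 worms and 0.57 ± 0.03 in unc22 worms. On day 6 the libraries within a group differed more under the knockdowns: the SD was 0.15 in zfp1 worms, 0.10 in sox8 worms and 0.16 in pax5 worms, against 0.05 in unc22 worms. The lowest day 6 library was pax5 replicate 1 at -0.19, which was also the deepest of the 48, and the highest was zfp1 replicate 1 at 0.27. As a share of all RPKM in the table, the 69 features together made up 0.523% ± 0.030 in zfp1 worms on day 18 and 0.286% ± 0.008 on day 6. The shares on days 18 and 6 were 0.517% ± 0.013 and 0.297% ± 0.028 in sox8 worms, 0.546% ± 0.017 and 0.269% ± 0.016 in pax5 worms, and 0.528% ± 0.009 and 0.274% ± 0.004 in unc22 worms. Abundant features weigh most in these sums, whereas each feature counts alike in the library median. On day 18 the shares of zfp1 and unc22 worms were thus close, although the median was lower in zfp1 worms.

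The 6 features with the largest u illustrate the common course. SMED30022680 had 10.8, 6.07, 10.6 and 9.88 RPKM on day 6, 18.7, 14.6, 18.5 and 16 on day 12 and 24.1, 22.1, 23.8 and 23.9 on day 18 in the 4 zfp1 libraries of each day. In unc22 worms it had 10.004, 9.3, 9.03 and 10.1 RPKM on day 6, 15.5, 14.5, 14.3 and 17.7 on day 12 and 28.6, 30.1, 30.3 and 30.8 on day 18. Each day thus formed a group of its own with no overlap, and the day 18 libraries of zfp1 worms all lay below those of unc22 worms. SMED30015039 had 27.5, 19.6, 20.5 and 24.2 RPKM on day 6, 28.7, 34, 36.4 and 34.6 on day 12 and 62.8, 57.5, 59.5 and 55.6 on day 18 in zfp1 worms. In unc22 worms it had 20.1, 21.6, 21.2 and 19.5 RPKM on day 6, 29.2, 34.3, 32 and 30.9 on day 12 and 54.4, 51.1, 56.1 and 53.2 on day 18. The days of this feature did not overlap in either RNAi.

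SMED30011881 lay at 10.7 to 13.2 RPKM on day 6, 20.8 to 24.3 on day 12 and 30.5 to 37.8 on day 18 in unc22 worms. SMED30021068 lay at 15.8 to 21.2 RPKM on day 6, 28.1 to 41.3 on day 12 and 37.6 to 51.7 on day 18 there, so its days 12 and 18 overlapped. The other pair was scarce. SMED30035394 lay at 1.1 to 1.5 RPKM on day 6, 1.84 to 2.19 on day 12 and 3.41 to 4.11 on day 18 in unc22 worms. SMED30024183, with the largest u of all (1.83), had only 0.484, 0.587, 0.708 and 1.22 RPKM on day 6 and 1.98, 4.15, 3.08 and 6.52 on day 18. Its inferred length of 134 bases was the shortest of the 69, and its reads per library numbered 0 to 14, so its large u rests on few reads.

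**Figure D2:**
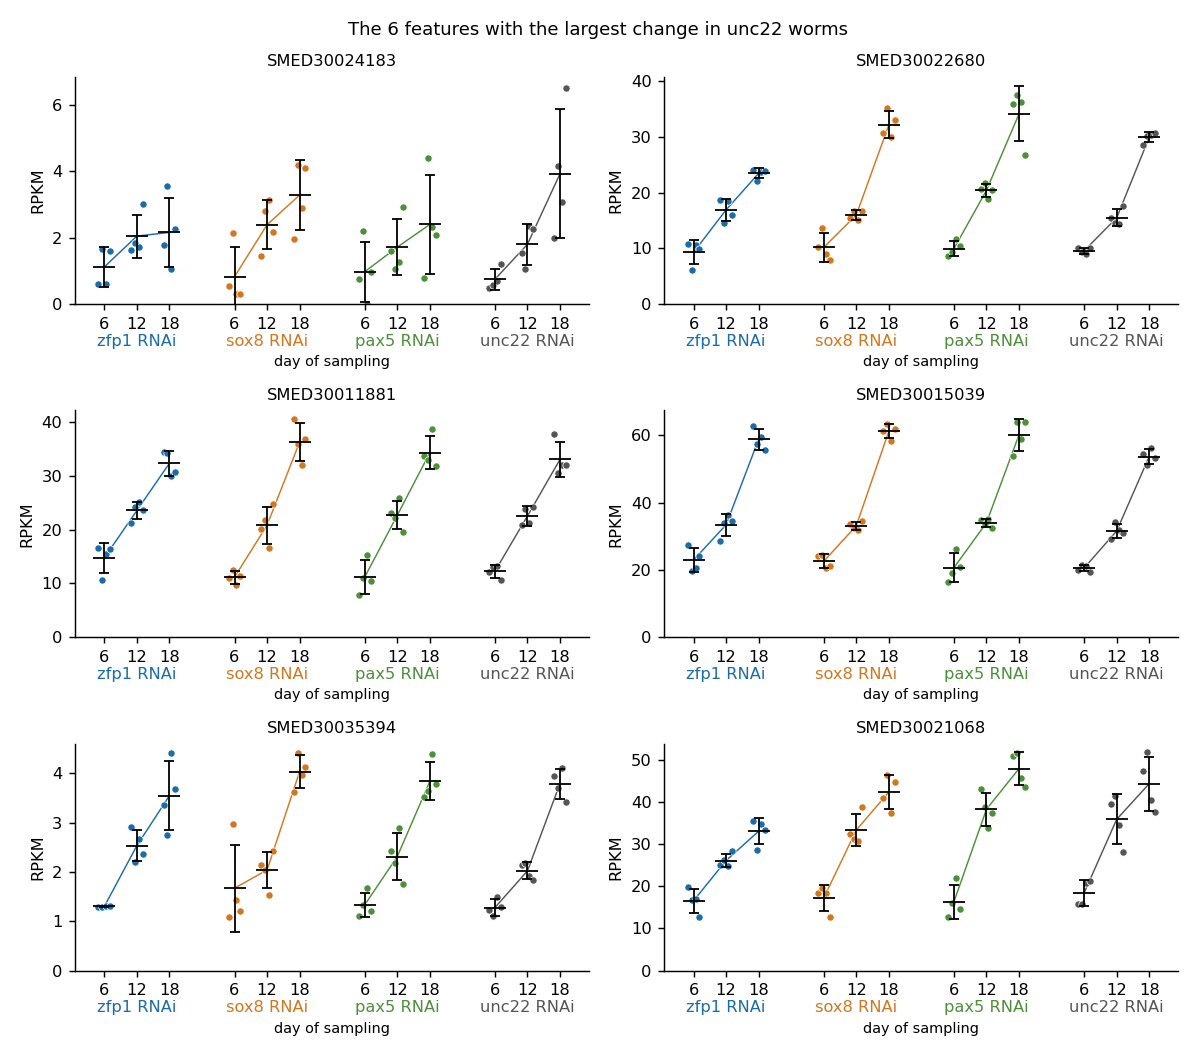
RPKM of the 6 features with the largest u in each library, by RNAi (zfp1, sox8, pax5, unc22) and day of sampling. Points are libraries, the bars give mean and SD (n = 4), and each panel has its own axis from 0. All panels climb with time under each RNAi, with the widest overlap between days in SMED30024183.

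The change over time under each knockdown is set out next. The knockdown libraries did not enter u, but the rule's limits used those of zfp1 on days 12 and 18 and those of sox8 and pax5 on every day, as levels near the unc22 mean of the same day. A rise under each knockdown was thus largely built into the choice of features. The counts and changes of the 69 are therefore a description beside all features, and the calls are no independent support for a rise. Calls are those of limma on log2(RPKM + 0.5), a scale that understates the fold change of low features, with a Benjamini-Hochberg adjusted p under 0.05 over all 22667 features as the threshold. The rule bounds these changes without fixing them: a feature with equal levels in zfp1 and unc22 worms on day 6 could have changed by as little as -0.1 in zfp1 worms and been kept. Single changes of the features are given with their SE, and with a p only for falls and for calls that ended at equal depth.

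In zfp1 worms, 60 of the 69 features rose on day 18 against day 6 and 0 fell, while 20.6% of all features tested rose and 21.6% fell. The median change was 0.78 log2 units (range 0.11 to 1.91), against -0.02 over all features, and 21 of the 69 reached 1. In sox8 worms 64 rose and 0 fell, while 20.1% of all features rose and 17.4% fell. Their median change was 1.00 (0.05 to 1.66), against 0.00 over all features, and 34 reached 1. In pax5 worms 67 rose and 0 fell, while 21.4% of all features rose and 20.2% fell. Their median was 1.07 (-0.07 to 1.72), against -0.02 over all features, and 43 reached 1. At an unadjusted p under 0.05 the falls also numbered 0 in each knockdown, and limma-voom on the recovered reads gave 62, 64 and 68 that rose and 0 that fell. The median SE of a change was 0.11. Under all 3 knockdowns 58 of 69 rose, compared with 11.0% of all features. The 4 libraries of day 18 all lay above the 4 of day 6 for 57 features in zfp1 worms (16.2% of all features), 59 in sox8 worms (16.3%) and 63 in pax5 worms (19.8%), and for 67 in unc22 worms (20.1%), where the rule used the same libraries.

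**Figure D3:**
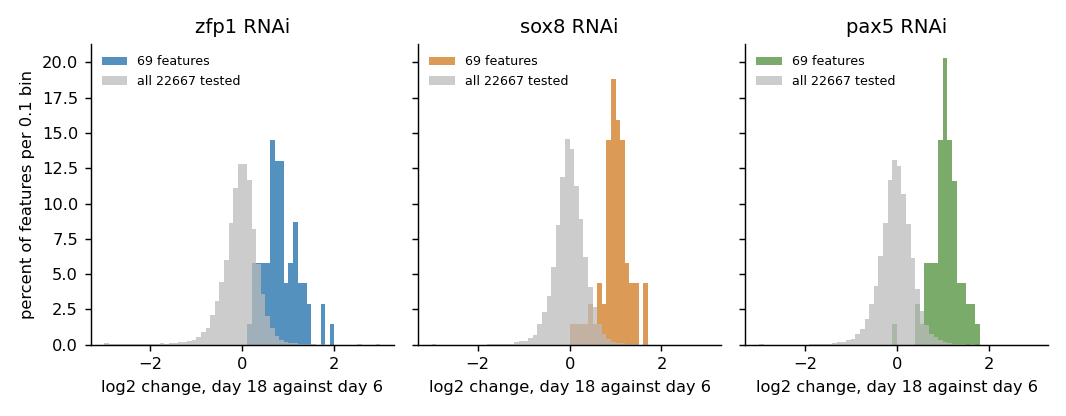
Distribution of the log2 change on day 18 against day 6 in zfp1, sox8 and pax5 worms, as the percent of features per bin of 0.1, for the 69 features (coloured) and all 22667 features tested (grey, values beyond either end placed there). The 69 features lie to the right of the bulk in each panel, with medians of 0.78, 1.00 and 1.07.

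Among the named features, SMED30015039 had 61.4, 63.3, 58.2 and 62 RPKM on day 18 and 24.3, 24.5, 20.6 and 21 on day 6 in sox8 worms, a change of 1.42 (SE 0.09). In pax5 worms it had 53.9, 63.9, 59 and 63.9 on day 18 and 16.4, 19.1, 26.4 and 20.9 on day 6, a change of 1.53 (SE 0.09). In zfp1 worms it changed by 1.35 (SE 0.09). Under no knockdown did its libraries of day 18 overlap those of day 6. SMED30022680 changed most of all in pax5 worms, by 1.72 (SE 0.12), with 35.9, 37.6, 36.4 and 26.8 RPKM on day 18 and 8.59, 9.29, 11.6 and 10.4 on day 6. SMED30024183 changed by 0.71 (SE 0.40) in zfp1 worms, where its day 18 libraries (1.79, 3.55, 1.05 and 2.26 RPKM) overlapped those of day 6 (0.606, 1.67, 0.595 and 1.62 RPKM), and this missed the threshold. In sox8 worms the same feature rose by 1.66 (SE 0.40).

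The increase was spread over both intervals. Between days 6 and 12, 54 features rose in zfp1 worms (11.9% of all features), 53 in sox8 worms (11.6%) and 56 in pax5 worms (11.8%), with median changes of 0.47, 0.52 and 0.67. Between days 12 and 18, 38 features rose in zfp1 worms (11.4% of all features), 47 in sox8 worms (7.1%) and 39 in pax5 worms (6.85%), with medians of 0.33, 0.47 and 0.42. The unc22 medians were 0.57 for the first interval and 0.47 for the second. Falls were rare among the 69 in both intervals. Between days 6 and 12, 1 fell in zfp1 worms (11.9% of all features), 0 in sox8 worms (12.1%) and 0 in pax5 worms (12.3%). Between days 12 and 18, 1 fell in zfp1 worms (12.3% of all features), 0 in sox8 worms (4.48%) and 0 in pax5 worms (4.72%). At an unadjusted p under 0.05, and with limma-voom, the falls in sox8 and pax5 worms also numbered 0 in both intervals. In zfp1 worms the falls at an unadjusted p under 0.05 numbered 1 between days 6 and 12 and 3 between days 12 and 18. With limma-voom they numbered 0 and 1. Quantile normalization, a replicate block and a fit of the groups compared each gave 2 falls in zfp1 worms between days 12 and 18. The single fall between days 6 and 12 was SMED30009662, which fell by 0.43 (adjusted p = 0.0385), a call lost in 8 of the alternative runs. The single fall between days 12 and 18 was SMED30024878, which fell by 0.62 (adjusted p = 0.000426), a call that ended at equal depth (adjusted p = 0.0613).

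Features that missed the threshold differed between the knockdowns. On day 18 against day 6 they numbered 9 in zfp1 worms, 5 in sox8 worms and 2 in pax5 worms, and 11 features missed it under at least 1 knockdown. SMED30002237 had 3.82, 5.24, 3.38 and 3.63 RPKM on day 18 and 3.68, 3.78, 2.74 and 4.51 on day 6 in zfp1 worms, a change of 0.11 (SE 0.18). In pax5 worms it had 3.42, 3.89, 4.16 and 2.45 on day 18 and 3.81, 2.47, 4.67 and 3.84 on day 6, a change of -0.07 (SE 0.18). In both knockdowns the days overlapped, and the sign of each change turned when single libraries were left out. In sox8 worms the feature rose by 0.80 (SE 0.18), with 4.73, 3.81, 4.66 and 6.19 RPKM on day 18 and 3.27, 2.47, 2.38 and 2.12 on day 6. SMED30025355 changed by 0.20 (SE 0.21) in zfp1 worms and by 0.95 (SE 0.21) in sox8 worms and by 0.84 (SE 0.21) in pax5 worms, and its calls in sox8 and pax5 worms ended at equal depth (adjusted p = 0.337 in sox8 worms and 0.3996 in pax5 worms). Its day 6 libraries held 5.2, 5.02, 4.12 and 4.53 RPKM in zfp1 worms, all above those of unc22 worms at 2.72, 3.49, 2.81 and 4.01 RPKM. SMED30012560, among the lowest changes in pax5 worms, was called there, with a change of 0.40 (SE 0.16), and missed it in 10 of the alternative runs.

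**Figure D4:**
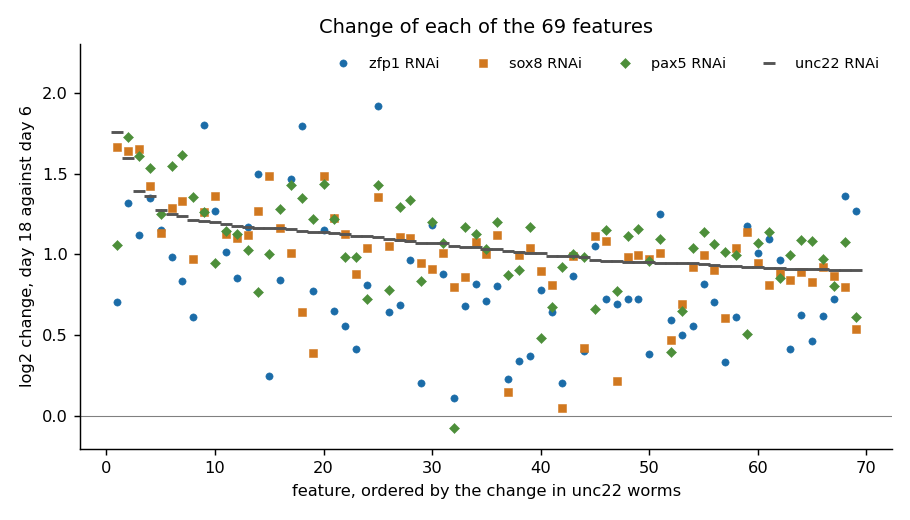
Log2 change on day 18 against day 6 of each of the 69 features under zfp1, sox8, pax5 and unc22 RNAi, as limma estimated it, with features ordered by the unc22 change. The pax5 and sox8 points scatter around the unc22 line, the zfp1 points lie more often below it, and 1 pax5 point (SMED30002237, -0.07) lies under 0.

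The size of the increase was compared between knockdowns by the difference of their changes from day 6 to day 18, which does not use unc22 libraries. The rule's limits bound these differences as well and do so unequally. The zfp1 level had to lie within 1 log2 unit of unc22 on day 18 and above -1 on day 12. The sox8 level had to average above -0.5 over its days, and pax5 on day 18 had to lie between -1 and 0.25. How far these limits shaped the differences was not tested, so the calls are again a description. The zfp1 change was below both the sox8 and the pax5 change in 44 of 69 features and above both in 12. The same counts were not taken over all features, so these have no share to stand beside. Set against zfp1, the sox8 change was larger in 15 features and smaller in 4 (9.75% and 6.29% of all features), with a median difference of 0.20 log2 units, against 0.01 over all features. After quantile normalization of all libraries the counts over all features were 2055 larger and 2088 smaller, compared with 2211 and 1426 without it, while the counts among the 69 were 16 and 5. The pax5 change was larger than that of zfp1 in 24 features and smaller in 4 (9.37% and 5.58% of all features), with a median difference of 0.32, against 0.00 over all features. Under quantile normalization the counts over all features were 2017 larger and 2014 smaller, compared with 2123 and 1264, and those among the 69 were 23 and 6. The 2 comparisons share the zfp1 libraries. At equal depth, where the reads of each library were thinned to the shallowest, the sox8 change was larger in 6 features and smaller in 3, while over all features 6.51% were larger and 3.55% smaller, so the share among the 69 lay near that of all features. The pax5 change was then larger in 15 of the 69 and smaller in 3, while over all features 6.67% were larger and 3.44% smaller. Between sox8 and pax5, 16 features had an unadjusted p under 0.05, a count that was not taken over all features and has no share beside it. At the adjusted threshold limma called 1 feature (1.61% of all features). It was SMED30018169, with a larger change in sox8 worms by 0.63 (SE 0.17), a call lost in 16 alternative runs.

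SMED30033443 showed a lower day 18 level in zfp1 worms. It had 5.07, 3.78, 4.59 and 3.27 RPKM on day 6 in zfp1 worms, 7.02, 6.73, 7.74 and 6.43 on day 12 and 6, 5.28, 5.6 and 5.11 on day 18. In pax5 worms it had 3.81, 5.23, 6.57 and 4.33 on day 6, 12.2, 10.2, 10.1 and 11.3 on day 12 and 11.6, 12.7, 12 and 10.2 on day 18. All zfp1 libraries of day 18 lay below all pax5 libraries of that day, while the day 6 libraries overlapped. Its change was larger than in zfp1 worms by 0.80 (SE 0.17) in pax5 worms and by 0.67 (SE 0.17) in sox8 worms, and the call for sox8 ended at equal depth (adjusted p = 0.431). SMED30028210 had a larger change in pax5 than in zfp1 worms by 0.78 (SE 0.20), with 15, 14.5, 15.3 and 12.5 RPKM on day 18 in pax5 worms and 11.6, 10.9, 9.29 and 9.93 in zfp1 worms. SMED30023355, one of the most abundant of the 69, had 381, 399, 367 and 386 RPKM on day 18 in pax5 worms and 275, 221, 227 and 229 in zfp1 worms, and a difference of changes of 0.43 (SE 0.10). Its mean was already lower in zfp1 than in pax5 worms on day 6 (144 against 172 RPKM) and on day 12 (200 against 288 RPKM). For both features all pax5 libraries of day 18 lay above all zfp1 libraries of that day.

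SMED30024878, which had the largest positive difference between sox8 and zfp1, and SMED30014923 were picked after their values were seen. SMED30024878 had 3.78, 2.26, 2.32 and 3.36 RPKM on day 6, 6.33, 5.65, 5.84 and 4.93 on day 12 and 3.49, 3.34, 3.35 and 3.87 on day 18 in zfp1 worms. In sox8 worms it had 1.44, 1.95, 2.12 and 2.16 on day 6, 4.28, 4.84, 3.62 and 3.14 on day 12 and 6.63, 6.19, 5.85 and 6.17 on day 18. It thus peaked on day 12 in zfp1 worms and climbed on both intervals in sox8 worms, a difference of changes of 1.23 (SE 0.19). SMED30014923 averaged 48.1 ± 4.83 RPKM in zfp1 worms on day 18, 82.4 ± 4.64 in sox8 worms, 77.8 ± 1.76 in pax5 worms and 83.1 ± 12.2 in unc22 worms (SD, n = 4 each). On day 6 the means lay at 37.8 ± 3.55 RPKM in zfp1 worms, 41.1 ± 3.68 in sox8 worms, 41.5 ± 5.03 in pax5 worms and 40.5 ± 1.78 in unc22 worms. Its sox8 change exceeded the zfp1 change by 0.66 (SE 0.11).

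A smaller number of features went further in zfp1 worms. SMED30035782 had 24.5, 19.2, 20.5 and 21.3 RPKM on day 6 in zfp1 worms, 51.6, 50.2, 48.5 and 42.6 on day 12 and 74.3, 75.1, 79.1 and 72.5 on day 18. In unc22 worms it had 14.9, 15.9, 18.6 and 17.1 on day 6, 25.1, 25.8, 25.4 and 26.4 on day 12 and 40.2, 38.6, 39.5 and 37.7 on day 18. The zfp1 libraries lay above the unc22 libraries on every day, with no overlap. Its change was smaller than in zfp1 worms by the same amount in both other knockdowns, with differences of -0.53 (SE 0.11) for sox8 and -0.53 (SE 0.11) for pax5. SMED30008225 rose by 1.36 (SE 0.09) in zfp1 worms and by 0.80 (SE 0.09) in sox8 worms, and the sox8 minus zfp1 difference was -0.57 (SE 0.13). SMED30011975 had the largest change in zfp1 worms, 1.91 (SE 0.16), with 8.99, 10.6, 9.62 and 7.89 RPKM on day 18 and 2.26, 1.96, 2.14 and 1.97 on day 6. Its changes were 1.35 (SE 0.16) in sox8 worms and 1.43 (SE 0.16) in pax5 worms, and neither difference from zfp1 passed the threshold.

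SMED30009662 followed a late course. It had 224, 173, 163 and 149.9 RPKM on day 6 in zfp1 worms, 126, 149, 131 and 115 on day 12 and 584, 579, 892 and 455 on day 18. In sox8 worms it had 200.4, 216, 285 and 176 on day 6, 261, 226, 190.002 and 154 on day 12 and 327, 348, 348 and 327 on day 18. Days 6 and 12 lay together in sox8 worms and day 18 stood above both, while in zfp1 worms day 12 was the lowest of the 3 days. Its change in sox8 worms was below that in zfp1 worms, with a difference of -1.15 (SE 0.22). In unc22 worms it averaged 185 ± 12.6 RPKM on day 6, 201 ± 29 on day 12 and 415 ± 78 on day 18. SMED30025719 was likewise late in unc22 worms, with 0.584, 0.886, 1.71 and 0.918 RPKM on day 6, 0.935, 0.961, 1.52 and 1.25 on day 12 and 3.58, 2.99, 2.88 and 2.25 on day 18. These values came from 8 to 10 reads per library on day 6, 8 to 15 on day 12 and 16 to 31 on day 18, so its course rests on few reads.

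The reverse course, with a peak on day 12, was shown by the most abundant feature, SMED30032663, and by SMED30022831. SMED30032663 had 255, 421, 287 and 293 RPKM on day 6, 666, 748, 547 and 625 on day 12 and 765, 436, 625 and 489.8 on day 18 in pax5 worms. In unc22 worms it had 278, 208, 207 and 344 RPKM on day 6, 844, 659.6, 1008 and 581 on day 12 and 539, 493, 537 and 493 on day 18. The pax5 libraries of days 12 and 18 overlapped, whereas all unc22 libraries of day 12 lay above those of day 18. On day 18 against day 6 it rose in pax5 worms, by 0.87 (SE 0.23), and changed by 0.23 (SE 0.23) in zfp1 worms and by 0.15 (SE 0.23) in sox8 worms, neither past the threshold. SMED30022831 had 19.996, 15.9, 12.9 and 24.2 RPKM on day 6 in unc22 worms, 57.5, 45.3, 67.6 and 42.3 on day 12 and 37.5, 35, 35.8 and 35 on day 18. The pair moved together library by library: after group means were removed, their Pearson r over the 48 libraries was 0.980, and the ratio of their RPKM stayed between 13.1 and 16.1. Over all 2346 pairs of the 69 features the median r was 0.228 and the lowest -0.414, and the next highest were 0.879 for SMED30024357 with SMED30000014 and 0.876 for SMED30021068 with SMED30022652. Depth and scaling are shared by the points of such correlations. How reads that align to several features were counted is not given in the sources used here, so near-identical features may share reads, and the pair may not be independent.

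**Figure D5:**
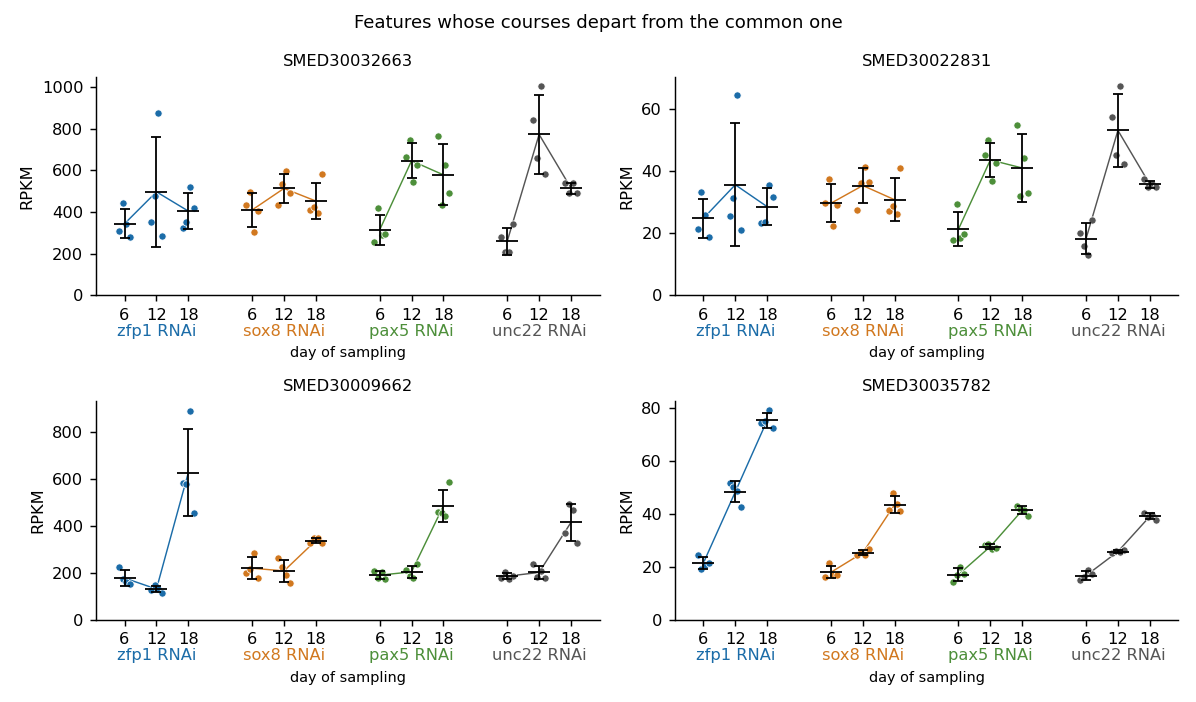
RPKM of SMED30032663, SMED30022831, SMED30009662 and SMED30035782 in each library, by RNAi (zfp1, sox8, pax5, unc22) and day of sampling. Points are libraries, the bars give mean and SD (n = 4), and each panel has its own axis from 0. The upper panels share a day 12 maximum in unc22 worms, SMED30009662 climbs between days 12 and 18, and SMED30035782 is highest in zfp1 worms.

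Differences from unc22 on the same day were used by the rule, except those of zfp1 on day 6, and are given without a test. On day 18 the zfp1 difference had a median of -0.19 log2 units over the 69 features (range -0.87 to 0.94), with 5 above 0.5 and 8 below -0.5. The pax5 difference had a median of 0.05, with 0 above 0.5 and 6 below -0.5, and the sox8 difference a median of 0.03, with 0 above 0.5 and 1 below -0.5. The rule kept only features with a pax5 difference on day 18 under 0.25, so its 0 above 0.5 followed from the choice. For zfp1 the upper limit was 1, so the counts above 0.5 cannot be compared between these knockdowns. The lowest zfp1 values on day 18 belonged to SMED30033443 (-0.87) and SMED30014923 (-0.78), and the lowest pax5 value to SMED30018169 (-0.89). The 3 comparisons share the unc22 libraries. The contrast of zfp1 with unc22 on day 6 was outside the rule, but it shares the unc22 day 6 libraries, which were low by choice, so it is likewise a description. There 16 features had an unadjusted p under 0.05, 3 of them lower, a count that was not taken over all features. The median difference was 0.07. At the adjusted threshold limma called 1 feature higher and 0 lower (1.36% of all features in either direction). The feature was SMED30035782, at 24.5, 19.2, 20.5 and 21.3 RPKM in zfp1 worms and 14.9, 15.9, 18.6 and 17.1 in unc22 worms, a difference of 0.35 (SE 0.08), which did not pass the threshold without zfp1 replicate 1, without unc22 replicate 1 or in a fit of these groups alone. Without zfp1 replicate 2 of day 6 the features past the threshold numbered 3, and without unc22 replicate 1 of day 6 they numbered 0.

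Across the 69 features, the changes on day 18 against day 6 under different knockdowns were only loosely related. Pearson's r was 0.387 between sox8 and zfp1 (Spearman's rho 0.439), 0.404 between pax5 and zfp1 (0.415) and 0.460 between sox8 and pax5 (0.451), against 0.526, 0.564 and 0.731 over all features tested. These are correlations across features, which are not independent replicates, and the rule narrows the range of the 69.

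The profile of the 69 over the 12 group means was also found outside the set. The features not chosen whose group means were most like the mean course of the 69 were SMED30015211 (Pearson r = 0.995 over 12 groups), SMED30013222 (0.994) and SMED30006784 (0.993). SMED30013222 rose by 0.63 (SE 0.06) in zfp1 worms. Within the 69, the same r ran from 0.621 to 0.994. All 3 had a u under the limit. SMED30015211 rose by 0.47 (SE 0.07) in zfp1 worms and by 0.70 (SE 0.07) in pax5 worms. In unc22 worms SMED30015211 lay at 50.4 to 59.5 RPKM on day 6, 69.1 to 71.4 on day 12 and 75 to 91.7 on day 18. SMED30006784, the most abundant of the 3, lay at 289.5 to 329 RPKM on day 6, 362 to 387 on day 12 and 417 to 449 on day 18. The course over time was therefore also present, at a smaller amplitude, in features below the limit on u.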

How the data were processed

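RNA of whole worms was measured in 48 libraries (4 per group of RNAi and day). The authors deposited RPKM values in 1 table of 28413 features. The submitters' processing notes name CASAVA 1.8.2, Bowtie and edgeR without a role, and the reference transcripts, filters and treatment of reads with several alignments are not given in the sources used here. Whole reads could be recovered from the RPKM steps for 28413 of 28413 features (no value was further than 4.07e-09 from a whole number, with 0.0001 allowed), with inferred lengths and library scaling factors of 0.929 to 1.07. The chi-square per degree of freedom between replicates ran from 1.76 to 16.2 over 72 pairs, so none was a copy.

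Features with a mean of at least 0.5 RPKM (22667) were tested on log2(RPKM + 0.5) with limma 3.58.1 in R 4.3.3, as 1 model of 12 group means with variance trend and robust fitting. Its two-sided p-values were adjusted by the Benjamini-Hochberg method over all features tested within a contrast. A feature rose, fell or was called where its adjusted p was under 0.05. The code was tested on simulated data. The rest was done in Python 3.11.15 (matplotlib 3.10.9, scipy 1.17.1, pandas 2.3.3, numpy 2.4.6).

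The 69 features, the lists and the tests were chosen with earlier results of these data known. Features were named by rule: those with the highest u or mean, nearest the limit on u, with the highest or lowest changes under each knockdown, with extreme zfp1 differences on day 6, with the earliest or latest course, and the 3 unchosen features most like the set. Others (SMED30024878, SMED30014923, SMED30018169, SMED30024357, SMED30000014 and SMED30022652) were named after their values were seen. Alternatives were another pseudocount, filter, scaling, set of groups, depth or test, a replicate block and leaving out each library.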

Additional observations from a re-analysis of the deposited data

Results flagged for a closer look

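In 252 groups of 4 libraries, 18 had a highest or lowest library set apart from the other 3 beyond Dixon's critical value, which chance alone gives in about 1 group in 20. The median of the 69 features was 1.14 log2 units above the unc22 day 6 mean in unc22 day 18 replicate 1, the highest of its group. On the high side stood, in RPKM, SMED30024183 at 2.15 in sox8 day 6 replicate 2 and at 3.012 in zfp1 day 12 replicate 4, and SMED30032663 at 583 and SMED30022831 at 41.0 in sox8 day 18 replicate 4. So did SMED30009662 at 588 in pax5 day 18 replicate 4, SMED30023355 at 275 in zfp1 day 18 replicate 1, SMED30011975 at 3.10 in unc22 day 6 replicate 3, SMED30035782 at 21.3 in sox8 day 6 replicate 2, SMED30025355 at 2.99 in sox8 day 6 replicate 3 and SMED30022831 at 29.4 in pax5 day 6 replicate 2. On the low side stood SMED30022680 at 26.8 in pax5 day 18 replicate 4 and at 22.1 in zfp1 day 18 replicate 2, SMED30021068 at 12.7 in sox8 day 6 replicate 4, SMED30008225 at 256 and SMED30012560 at 2.07 in pax5 day 18 replicate 1, SMED30012560 at 2.08 in zfp1 day 6 replicate 2, and SMED30020068 at 73.2 in unc22 day 18 replicate 3.

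Changes from day 6 to day 18 that differed between knockdowns by limma numbered 19 for sox8 against zfp1, 28 for pax5 against zfp1 and 1 for sox8 against pax5. The limits that chose the features used the same libraries, so these differences are a description. At equal depth they numbered 9 for sox8 against zfp1 and 18 for pax5 against zfp1. For sox8 minus zfp1 the named features were SMED30035782 with -0.53 log2 units, SMED30008225 with -0.57, SMED30009662 with -1.15, SMED30011881 with 0.53 and SMED30033443 with 0.67. For pax5 minus zfp1 they were SMED30028210 with 0.78, SMED30035782 with -0.53, SMED30023355 with 0.43, SMED30021068 with 0.56 and SMED30033443 with 0.80. The differences of SMED30011881 and SMED30021068 lost their call in 11 and 14 of the alternative runs, and the sox8 minus zfp1 difference of SMED30033443 lost it at equal depth (adjusted p = 0.431).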

How the results depend on the processing

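The counts of features that rose over time in zfp1, sox8 and pax5 worms stayed within 1.5 times the reported ones under every alternative run. Leaving out 1 library at a time gave 58 to 61, 61 to 65 and 65 to 67 for day 18 against day 6, 50 to 56, 47 to 55 and 54 to 56 for day 12 against day 6, and 34 to 37, 44 to 48 and 37 to 39 for day 18 against day 12, in the order zfp1, sox8, pax5. Leaving out libraries gave 13 to 27 calls for sox8 against zfp1, 23 to 30 for pax5 against zfp1, 0 to 2 for sox8 against pax5 and 0 to 3 for zfp1 against unc22 on day 6. Calls for zfp1 against unc22 on day 6 (1) became 5 with quantile normalization, 0 in a fit of the groups compared and 2 at equal depth. For sox8 against zfp1, 19 calls became 12 in a fit of the groups compared, which has fewer libraries, and 9 at equal depth, where reads were thinned to the shallowest library. For pax5 against zfp1, 28 became 18 at equal depth. The 1 call between sox8 and pax5 became 0 with a pseudocount of 0.1, without a filter, with quantile normalization, at equal depth and with limma-voom on recovered reads, which was added after the data were seen. The number of features chosen (69) became 113 with a pseudocount of 0.1, 52 with a pseudocount of 1 and 40 with a u of at least 1. Without 1 unc22 library it ran from 72 to 87. For the set of 40 the cause was the stricter limit on u, and for the others it was not tested. The features themselves changed too. Without 1 unc22 library of day 6 or 18, 59 to 64 of the 69 were kept and 10 to 24 others came in. Quantile normalization kept 56 of the 69 and brought in 17 others, whereas a pseudocount of 0.1 kept all 69. Leaving out libraries turned the sign for SMED30002237 in zfp1 worms (-0.0073 to 0.21) and in pax5 worms (-0.23 to 0.067) and for SMED30022831 in sox8 worms (-0.092 to 0.17), and equal depth for SMED30025355 in zfp1 worms (-0.29). None of these changes was called. Of the alternatives of single named features, 1389 kept direction and call, 75 lost the call and 7 changed sign. The deviations of same-numbered libraries of different groups had a median r of 0.001 over 264 pairs, with 14 over 0.1. Those of other-numbered libraries had a median r of 0.0005 over 792 pairs, with 52 over 0.1. Such medians cannot show whether some same-numbered libraries were handled together. A fit with the replicate block gave 60, 64 and 67 features that rose on day 18 against day 6, and 19, 26 and 1 calls between knockdowns. The planned edgeR and DESeq2 fits were not run, and limma-voom on the recovered reads took their place.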
